A study of Saccharomyces cerevisiae with 6 samples.

Results

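The translation initiation factors of budding yeast and the Gcn2-Gcn4 control that acts on them were examined in cells with extra copies of the elongation factor eEF1A. The set holds 37 genes, from the eIF1 gene to the eIF5B gene, together with the Gcn2 pathway and a tRNA methyltransferase first isolated with it. Members were found by gene symbol in the chip annotation deposited with the arrays. All 37 were on the array, on 36 probe sets, because TIF1 and TIF2 share one. These 36 probe sets belong to the 5721 Saccharomyces cerevisiae genes that were tested.

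RNA was measured on 6 Affymetrix Yeast 2.0 arrays, each a chip with probe sets for S. cerevisiae and for the fission yeast Schizosaccharomyces pombe. The 4 control arrays (replicates 1 to 4) came from wild-type cells that held a 2 µ LEU2 plasmid without an insert, and the 2 eEF1A arrays (replicates 2 and 3) from cells whose LEU2 plasmid carried TEF1, an eEF1A gene, under the GPD promoter. Both groups were grown in synthetic medium without leucine at 30 °C, diluted to an optical density of 0.1 and collected in log phase at 0.7. The labels describe the eEF1A cells as enlarged and the control cells as normal in size, and name no strain beyond wild type. The study's methods speak of biological triplicates, so that with 4 and 2 arrays the p-values below measure the spread between these arrays and no more.

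A ribosome finds its start codon with the help of initiation factors. eIF2 brings the initiator tRNA as a complex with GTP, the eIF4F complex and its helicases prepare the capped end of the mRNA, eIF1, eIF1A, eIF3 and eIF5 guide the scanning small subunit, and eIF5B joins the large subunit. When amino acids run short, the kinase Gcn2 phosphorylates the alpha subunit of eIF2, which then blocks eIF2B, its exchange factor. General initiation falls, while translation of the GCN4 mRNA rises through its short upstream reading frames, and Gcn4 switches on the genes of amino acid synthesis. An array reads mRNA, and so reads neither the phosphorylation of eIF2 nor the translation of GCN4.

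Values are log2 expression, and differences are eEF1A minus control on the log2 scale. Each was tested with limma across all 5721 genes at a Benjamini-Hochberg adjusted p under 0.05, the rule meant wherever a gene is said to have risen, fallen or passed. Errors are SD over 4 control or 2 eEF1A arrays for levels, and SE for differences.

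Most initiation factor genes kept their mRNA level within a narrow band while a large share of the genome moved. Of the 36 probe sets, 4 fell (DED1, GCD14, SUI2 and NIP1), 1 rose (GCN20) and 31 did not pass. Of all genes tested, 15.5% fell and 27.5% rose by the same rule, or 42.9% in either direction. The members lower were thus 11.1% of the set and those higher 2.78%. The median difference of the members was −0.01, with the middle of the set between −0.07 and 0.06, against a median of 0.04 and a middle range of −0.10 to 0.22 over all genes. The median size of a difference, whatever its sign, was 0.06 in the set and 0.16 over all genes. The members were brighter as a set, with a median level of 11.43 against 9.03 over all genes. The part of this level in the narrow band was not tested. Only 3 members (DED1, GCD14 and DBP1) differed by 0.3 or more. Both eEF1A arrays lay above all control arrays for 4 members and below them for 9, where 35.7% and 21.5% of all genes did so. No member was dim, since each had a mean above 5.17, the level under which 95% of the S. pombe probe sets lie.

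**Figure D1:**
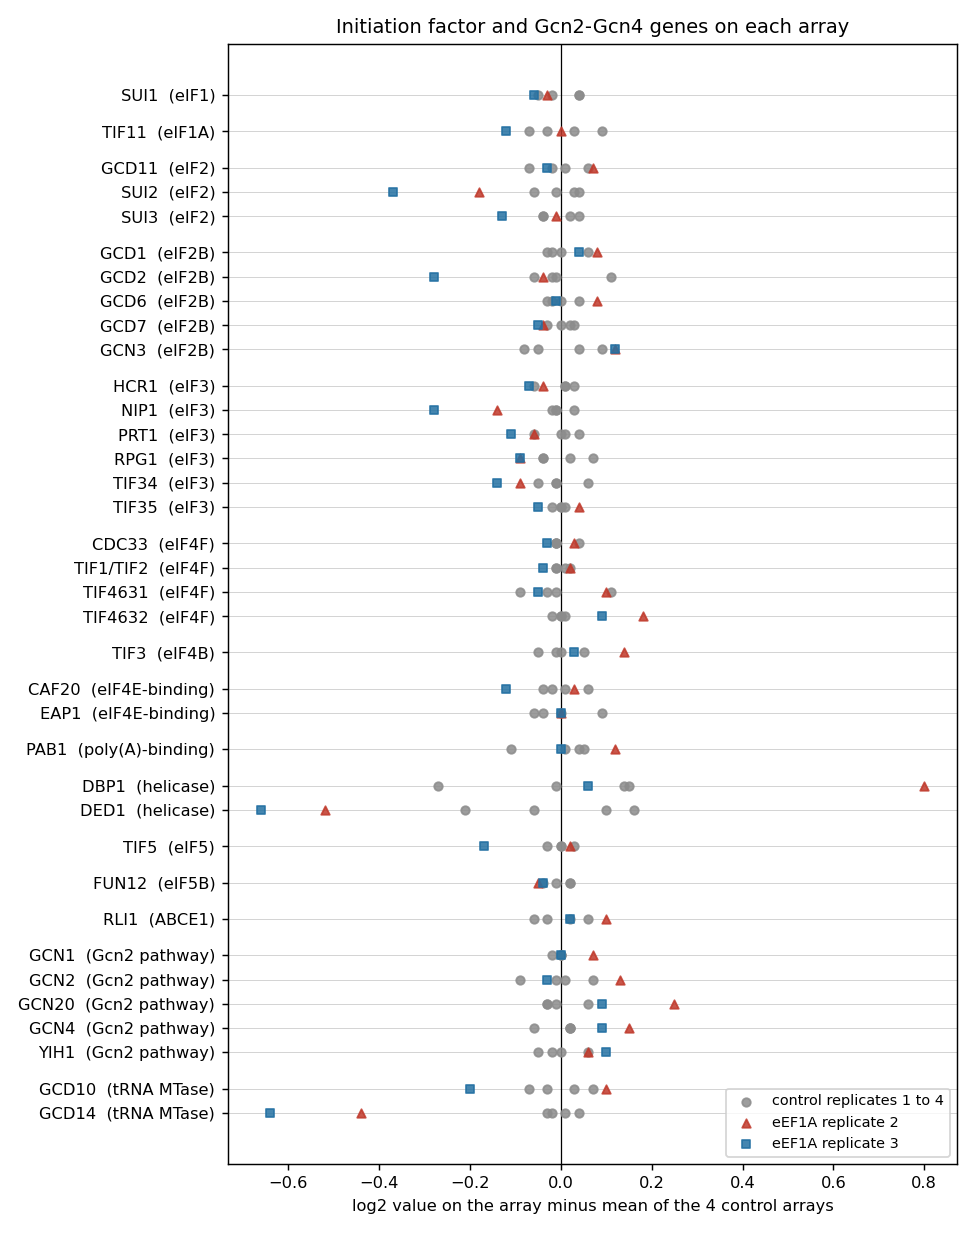
Each row is a gene, grouped by factor, and the horizontal axis is its log2 value on an array minus its mean over the 4 control arrays. Grey circles are the control arrays, red triangles eEF1A replicate 2 and blue squares eEF1A replicate 3. Most symbols crowd around 0, while both eEF1A symbols of DED1, GCD14, SUI2 and NIP1 stand to the left of every control.

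The groups also differed in ways the plasmid does not name, and these touch every difference given here. All 6 genes that mark a cells fell, such as MFA2, a pheromone gene of a cells, from 12.81 to 5.73. All 4 genes that mark alpha cells rose, such as MF(ALPHA)1, from 4.03 to 12.46. Of 5 auxotrophic marker genes, MET17 was at 4.96 in the controls and 11.55 in the eEF1A arrays, and URA3 at 3.48 and 6.22. HIS3 rose by 0.29 and LYS2 by 0.23, while LEU2, carried by both plasmids, was at 14.36 and 14.42 (adjusted p = 0.352). The eEF1A plasmid, the mating type and the marker genotype cannot be told apart as sources of a difference. The probe set shared by TEF1 and TEF2 read 14.49 ± 0.01 in the controls and 14.50 ± 0.01 in the eEF1A arrays (difference 0.00, 95% interval −0.10 to 0.11, adjusted p = 0.955), so that no rise of the overexpressed gene was measured by this probe set. Its level lay near the top of the scale, the highest mean of any gene being 14.67. Whether a rise could show there was not tested. The study found more eEF1A protein by western blot, which an array does not read. The 2 eEF1A arrays were also not alike, as replicate 3 was below replicate 2 in 33 of 36 members (91.7%), and in 82.2% of all genes. On replicate 2, 6 older spike-in control probe sets lay at −1.76 to −1.19 from the control mean on the log2 scale, where those of replicate 3 lay at 0.05 to 0.35. The 6 newer spike-in probe sets did not show this, at −0.10 to 0.03 on replicate 2 and 0.11 to 0.45 on replicate 3. The part of the spike-in differences in the members' values was not tested.

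The factors that hold the start codon in place moved little. SUI1 encodes eIF1, which keeps the scanning ribosome open until a start codon is met. It read 12.93 ± 0.05 in control cells and 12.88 ± 0.02 in eEF1A cells, a difference of −0.05 (95% interval −0.16 to 0.07). TIF11 encodes eIF1A and was at 12.83 ± 0.07 and 12.77 ± 0.09 (difference −0.06, adjusted p = 0.467). TIF5 encodes eIF5, the GTPase-activating protein of eIF2, and was at 11.32 ± 0.02 and 11.24 ± 0.14 (difference −0.08, adjusted p = 0.372). The lower mean came from replicate 3, at 11.15, while replicate 2, at 11.34, sat inside the control range. FUN12 encodes eIF5B, the GTPase of subunit joining, and was at 12.55 ± 0.03 and 12.51 ± 0.01 (difference −0.04, adjusted p = 0.514). Its eEF1A arrays were both below the controls, although by a gap that rounded to 0.00. RLI1, the ABCE1 protein that splits ribosomes for reuse, was at 10.71 ± 0.05 and 10.77 ± 0.06 (difference 0.06, adjusted p = 0.418).

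Within eIF2, the alpha subunit gene fell and the other subunit genes did not pass. SUI2, on chromosome 10 (chr10:450713-451627, plus strand, October 2003 SGD build), encodes the alpha subunit that Gcn2 phosphorylates. It read 12.09, 12.14, 12.13 and 12.04 in the controls and 11.92 and 11.73 in the eEF1A arrays. Both eEF1A arrays lay below every control, replicate 3 further than replicate 2. The difference was −0.27 ± 0.07, a level 17.2% lower (fold 0.828, 95% interval on the log2 scale −0.42 to −0.12, adjusted p = 0.0118).

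SUI3, the beta subunit that contacts eIF5 and eIF2B, read 12.04, 12.10, 12.12 and 12.04 in the controls and 12.07 and 11.95 in the eEF1A arrays. GCD11, the gamma subunit that binds GTP and the initiator tRNA, read 12.13, 12.05, 12.18 and 12.10 and then 12.19 and 12.09. The eEF1A arrays overlapped the controls in both. Their differences were −0.07 (interval −0.20 to 0.06) and 0.02 (interval −0.11 to 0.16). Set against SUI3 on the same array, SUI2 ran from −0.01 to 0.05 in the controls and was at −0.15 and −0.22 in the eEF1A arrays. Set against GCD11 it ran from −0.06 to 0.08 and was then at −0.26 and −0.37. The ratio of SUI2 signal to that of its partner subunits was thus lower on both eEF1A arrays than on any control array. SUI2 had the largest fall of the eIF2 genes, so these gaps restate the differences above and are no further support. Without eEF1A replicate 3, the difference of SUI2 was −0.17 and missed the threshold (adjusted p = 0.0524).

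None of the 5 genes of eIF2B, which reloads eIF2 with GTP, passed. GCN3, the alpha subunit and part of the regulatory core that senses phosphorylated eIF2, was at 10.91 ± 0.08 in the controls and 11.03 on both eEF1A arrays (difference 0.12, interval −0.02 to 0.26, adjusted p = 0.15). It was the one eIF2B gene with both eEF1A arrays above the controls, the nearest control being 0.03 away. GCD7, the beta subunit, was at 10.63 ± 0.02 and 10.58 ± 0.01 (difference −0.05, adjusted p = 0.41). GCD2, the delta subunit, read 10.34, 10.30, 10.47 and 10.35 and then 10.32 and 10.08 (difference −0.16, interval −0.35 to 0.02, adjusted p = 0.129). Its lower mean came from replicate 3, while replicate 2 stood among the controls. The catalytic subunits GCD1 (gamma) and GCD6 (epsilon) were at 10.20 ± 0.04 and 10.26 ± 0.03, and at 10.21 ± 0.03 and 10.25 ± 0.06. Their differences were 0.06 (adjusted p = 0.389) and 0.04 (adjusted p = 0.578).

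The 6 genes of eIF3, the large scaffold that links the small ribosomal subunit with the mRNA and the other factors, all had negative differences, from −0.20 to −0.00 with a median of −0.09, and 1 of them passed. NIP1, the c subunit, which carries binding surfaces for eIF1 and eIF5 (chr13:892988-895426, minus strand), lay between 11.99 and 12.04 in the controls and read 11.87 and 11.73 in the eEF1A arrays. The nearer eEF1A array was 0.11 below the lowest control. The difference was −0.20 ± 0.06 (fold 0.869, interval −0.33 to −0.07, adjusted p = 0.0209). Without eEF1A replicate 3 it was −0.13 (adjusted p = 0.0891), and NIP1 also missed the threshold without control replicate 1 or without control replicate 4.

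RPG1, the a subunit, was at 12.18 ± 0.05 and 12.09 ± 0.00 (difference −0.10, adjusted p = 0.185). PRT1, the b subunit, was at 11.82 ± 0.04 and 11.73 ± 0.03 (difference −0.08, adjusted p = 0.226). TIF34, the i subunit, was at 12.54 ± 0.05 and 12.42 ± 0.04 (difference −0.12, interval −0.24 to 0.01, adjusted p = 0.112). In these 3 genes, as in NIP1, both eEF1A arrays lay below all controls. The gap was 0.05 for RPG1 and 0.04 for TIF34, while for PRT1 it rounded to 0.00. Over all genes this held for 21.5%, and 2413 of 5721 differences were negative. TIF35, the g subunit, read 12.62 ± 0.02 and 12.61 ± 0.06 (difference −0.00, adjusted p = 0.954), and HCR1, the j subunit that also takes part in ribosome recycling, 11.57 ± 0.04 and 11.52 ± 0.02 (difference −0.05, adjusted p = 0.437). Against TIF35 on the same array, NIP1 ran from −0.64 to −0.58 in the controls and from −0.84 to −0.78 in the eEF1A arrays. NIP1 and TIF35 had the largest and smallest of the 6 differences, so a gap between them follows from the choice of pair. Centring each array on its S. cerevisiae median lowered every gene's difference by the same amount, so negative differences had to stay negative. The eIF3 median became −0.15, and TIF34, RPG1 and PRT1 passed as well. Over all genes the number that fell went from 884 to 1445 with this centring. Without eEF1A replicate 3, or without control replicate 4, 5 of the 6 were negative.

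The cap-binding complex and its partners were close to level. CDC33, the cap-binding protein eIF4E, was at 13.08 ± 0.02 and 13.08 ± 0.04 (difference −0.01, interval −0.12 to 0.11). The probe set of TIF1 and TIF2, which encode the same helicase eIF4A, was at 13.92 ± 0.02 and 13.91 ± 0.05 (difference −0.01, interval −0.12 to 0.10). Their separate shares cannot be read, because the target sequence aligns to both genes with an identity of at least 99.49% (chr10:153202-154389 and chr11:554623-555810). The scaffold eIF4G is encoded by TIF4631 and TIF4632. TIF4631 was at 10.89 ± 0.08 and 10.92 ± 0.11 (difference 0.03, adjusted p = 0.775). TIF4632 read 9.27, 9.25, 9.28 and 9.27 in the controls and 9.45 and 9.36 in the eEF1A arrays. Both eEF1A arrays lay above the tightly grouped controls, and the difference of 0.14 ± 0.05 (interval 0.02 to 0.25) missed the threshold after adjustment (adjusted p = 0.0584).

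TIF3, the helicase cofactor eIF4B, was at 12.02 ± 0.04 and 12.10 ± 0.08 (difference 0.09, adjusted p = 0.253). CAF20 and EAP1, which compete with eIF4G for eIF4E and so hold back initiation, had differences of −0.05 (12.52 ± 0.04 and 12.48 ± 0.11, adjusted p = 0.558) and 0.01 (9.02 ± 0.07 and 9.02 ± 0.00, adjusted p = 0.953). PAB1, the poly(A)-binding protein that bridges the mRNA ends through eIF4G, was at 13.08 ± 0.07 and 13.14 ± 0.08 (difference 0.06, adjusted p = 0.459).

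Among the helicases that unwind structured leaders, DED1 had the largest fall in the set. DED1 (chr15:722911-724725, plus strand) is an essential DEAD-box helicase of scanning. It read 10.38, 10.07, 10.44 and 10.22 in the controls and 9.76 and 9.62 in the eEF1A arrays. The controls were more spread than for most members (SD 0.17, against a median of 0.04), yet both eEF1A arrays lay below the lowest of them. The difference was −0.59 ± 0.10, a level 33.6% lower (fold 0.664, interval −0.83 to −0.35, adjusted p = 0.0027).

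Its paralog DBP1 (chr16:324410-326263, minus strand) can stand in for DED1 when overproduced. It read 5.71, 5.30, 5.56 and 5.72 in the controls and 6.37 and 5.63 in the eEF1A arrays. Its control values lie close above the background level of 5.17. Replicate 2 was high and replicate 3 lay within the control range, so the difference of 0.43 ± 0.19 rested on 1 array (interval −0.02 to 0.87, adjusted p = 0.108). Without eEF1A replicate 3 it was 0.80 and passed (adjusted p = 0.00498). The signal of DED1 minus that of DBP1 on the same array ran from 4.50 to 4.88 in the controls and was 3.39 and 3.98 in the eEF1A arrays. This gap joins the fall of DED1 to a faint DBP1 signal that was high on replicate 2 alone.

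DED1 lies beside the marker gene HIS3, and its neighbours moved too. They were looked at after the values of DED1 were known, with the gene order taken from the RefSeq annotation of the R64 assembly. MRM1, a mitochondrial rRNA methyltransferase gene on the far side of HIS3, lay between 9.95 and 10.04 in the controls and read 8.69 and 8.52 in the eEF1A arrays (difference −1.39, adjusted p = 2.55e-06). HIS3 itself was at 11.59 ± 0.02 and 11.88 ± 0.03. On the other side of DED1, GEP3, a mitochondrial protein gene, and NOC2, a ribosome assembly gene, each fell by 0.35 (adjusted p = 0.00498 and 0.00999). All 4 neighbours listed thus passed, 3 of them downward like DED1, where 42.9% of all genes passed and 15.5% fell. The part of the HIS3 locus in the DED1 difference was not tested and cannot be told apart from that of the plasmid. Beside GCD14, the other member with a large fall, none of the 4 nearest measured genes passed (differences from −0.10 to 0.26). Near SUI2, MHO1 and MET3 passed with differences of 0.69 and −1.22. Near NIP1, UPA2 and GLC8 passed with differences of −0.22 and 0.22, and near GCN20, FAR7 passed with 0.31. The other neighbours of these 3 members did not pass.

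**Figure D2:**
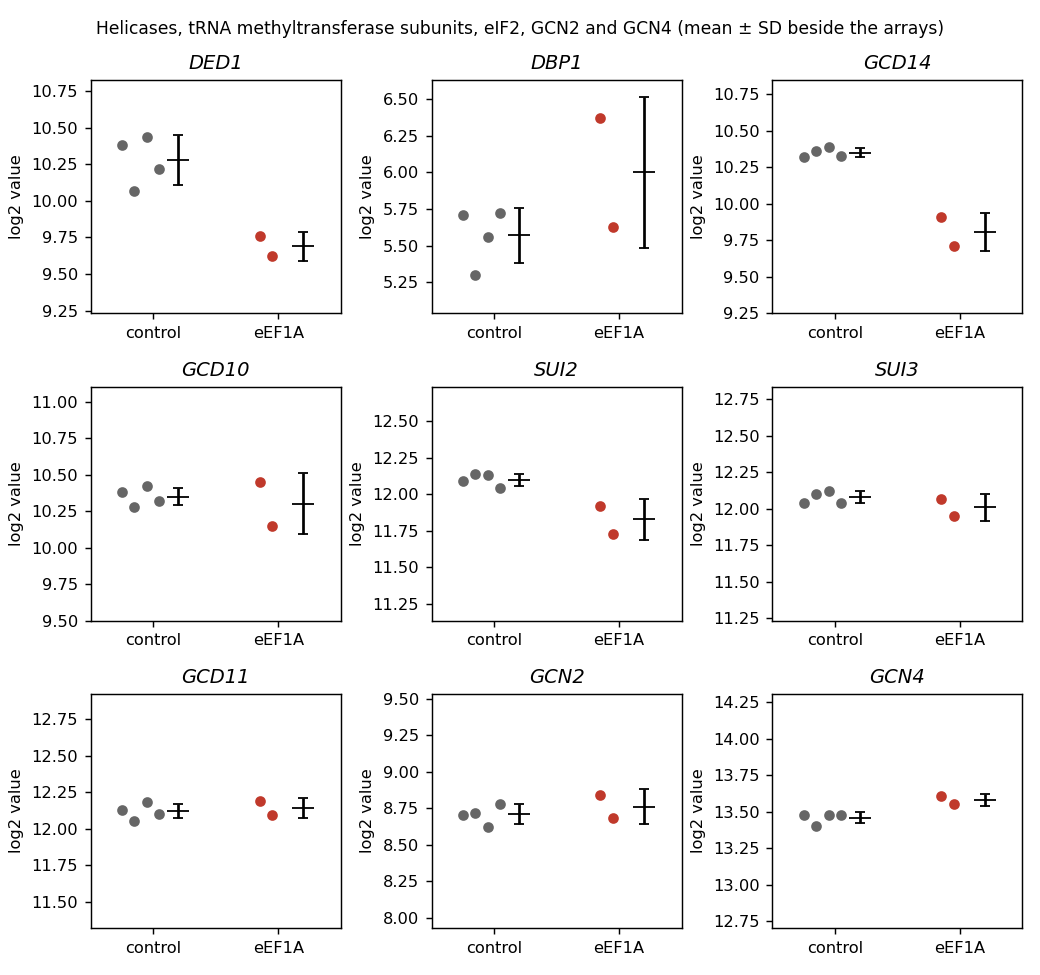
Panels show 9 genes, with the log2 value on the vertical axis, cut to the range of each gene but with the same number of log2 units in every panel. Points are arrays, controls 1 to 4 and eEF1A 2 and 3 from left to right, and the bar beside them is the mean ± SD. DED1 and GCD14 show a clear gap between groups, SUI2 a smaller one, and DBP1, GCD10, SUI3, GCD11 and GCN2 overlap.

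The tRNA methyltransferase made of Gcd10 and Gcd14 modifies the initiator tRNA, which needs the mark for its stability, and its mutants were found among those that raise GCN4 expression. Of its subunit genes only GCD14 fell. GCD14 (chr10:185227-186378, minus strand), the catalytic subunit, read 10.32, 10.36, 10.39 and 10.33 in the controls and 9.91 and 9.71 in the eEF1A arrays. The controls spanned 0.07 and the nearer eEF1A array was 0.41 below them. The difference was −0.54 ± 0.06, a level 31.2% lower (fold 0.688, interval −0.69 to −0.39, adjusted p = 0.000382). By the study's own kind of threshold, a B-statistic above 1.5, GCD14 alone among the members passed (B = 2.34), where 8.62% of all genes did.

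GCD10 read 10.38, 10.28, 10.42 and 10.32 in the controls and 10.45 and 10.15 in the eEF1A arrays, one above and one below all of them (difference −0.05, interval −0.25 to 0.14, adjusted p = 0.657). GCD14 minus GCD10 on the same array ran from −0.06 to 0.08 in the controls and was −0.54 and −0.43 in the eEF1A arrays, a shift of −0.49 in the ratio of the subunit genes. This shift restates the differences of both genes and is no further support.

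**Figure D3:**
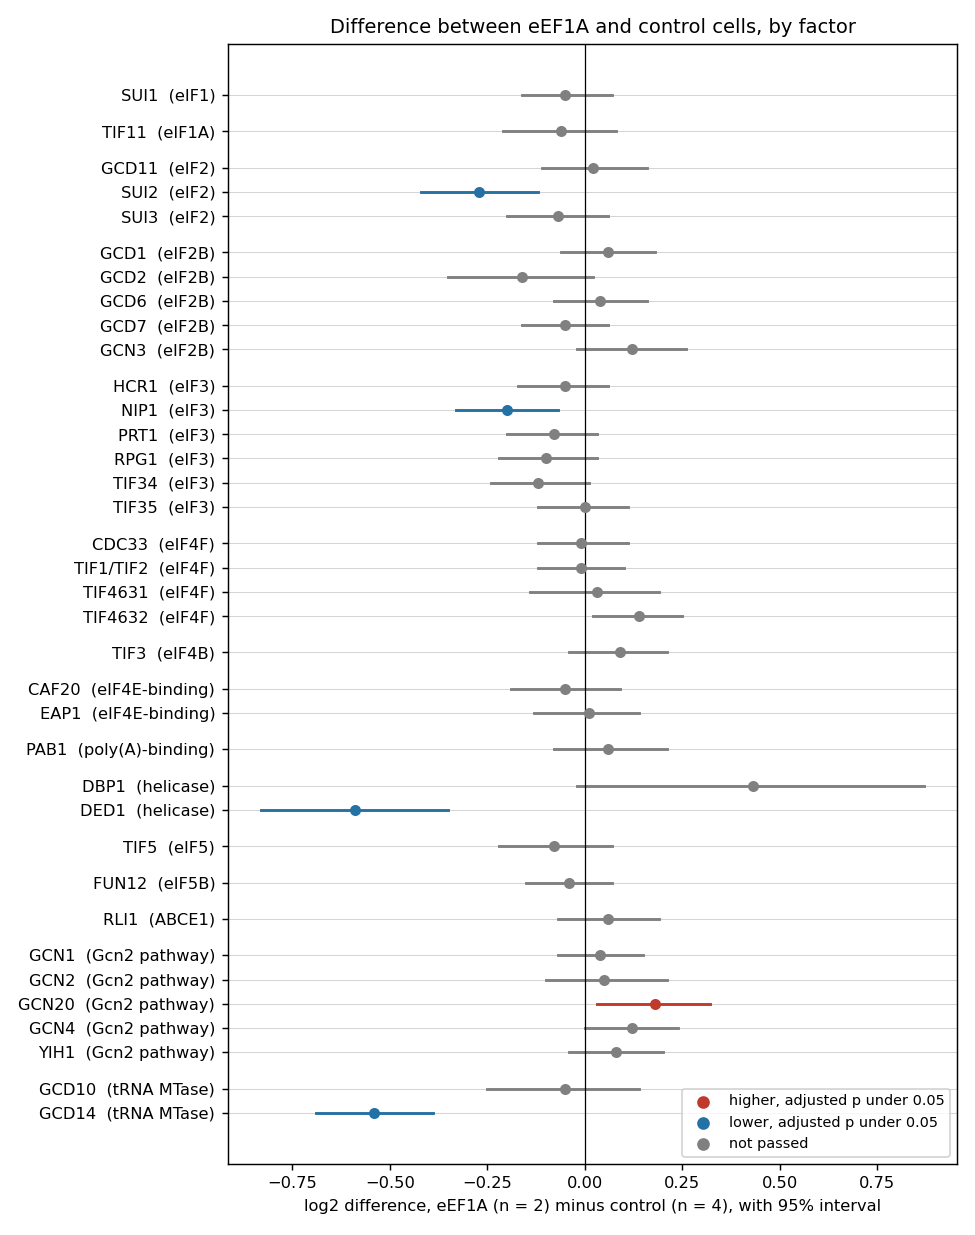
Each row is a gene, grouped by factor, and the horizontal axis is the log2 difference between the mean of 2 eEF1A arrays and the mean of 4 control arrays, with its 95% interval as a line. Blue marks the 4 genes that fell, red the 1 that rose and grey the 31 that did not pass; the wide interval of DBP1 comes from its disagreeing eEF1A arrays.

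The Gcn2 pathway genes leaned the other way, by small amounts. All 5 differences were positive, from 0.04 to 0.18 with a median of 0.08, and 1 of them passed. Over all genes 3308 of 5721 differences were positive, with a median of 0.04. After quantile normalization over S. cerevisiae probe sets, or after median centring, 3 of the 5 were positive. GCN2 (chr4:1025061-1030040, minus strand), the kinase, read 8.70, 8.72, 8.62 and 8.78 in the controls and 8.84 and 8.68 in the eEF1A arrays. Replicate 2 was just above the controls and replicate 3 among them, a difference of 0.05 ± 0.07 (interval −0.10 to 0.21, adjusted p = 0.549). GCN1, which with Gcn20 carries the starvation signal from the ribosome to Gcn2, was at 11.18 ± 0.01 and 11.22 ± 0.05 (difference 0.04, adjusted p = 0.537).

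GCN20 (chr6:162482-164740, plus strand) rose slightly. It read 11.25, 11.23, 11.32 and 11.23 in the controls and 11.51 and 11.35 in the eEF1A arrays, both above every control, with replicate 3 only 0.03 clear of them. The difference was 0.18 ± 0.06 (fold 1.13, interval 0.03 to 0.32, adjusted p = 0.0485). Without eEF1A replicate 2 the difference was 0.10 and did not pass (adjusted p = 0.236), and it also missed the threshold without control replicate 1, 2 or 4. YIH1, which competes for Gcn1 and so restrains Gcn2, was at 9.82 ± 0.05 and 9.90 ± 0.03 (difference 0.08, adjusted p = 0.235).

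GCN4 (chr5:138918-139763, minus strand), the transcription factor at the end of the pathway, read 13.48, 13.40, 13.48 and 13.48 in the controls and 13.61 and 13.55 in the eEF1A arrays. Both eEF1A arrays stood above the controls. The difference was 0.12 ± 0.05 (fold 1.09, interval 0.00 to 0.24), with an unadjusted p of 0.0482 and an adjusted p of 0.0945, so GCN4 did not pass. It passed under 2 of 17 alternatives, repeated quantile normalization and limma with a trend, and its adjusted p ran from 0.032 to 0.543 over them.

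Genes that act on Gcn2, on phosphorylated eIF2 or on Gcn4 itself went both ways. Of 16 such genes, 2 rose (12.5%, against 27.5% of all genes), 5 fell (31.2%, against 15.5%) and 9 did not pass. Their median difference was 0.00. Some of those that passed act in the destruction of Gcn4, and they did not move in one direction. PHO85, a cyclin-dependent kinase that phosphorylates Gcn4, rose by 0.31 (9.13 ± 0.03 to 9.44 ± 0.10, adjusted p = 0.0035). SSN3 (Srb10), the Mediator kinase that also phosphorylates Gcn4, fell by 0.45 (8.91 ± 0.05 to 8.46 ± 0.22, adjusted p = 0.00369), and CDC34, the ubiquitin-conjugating enzyme that acts after them, fell by 0.26 (10.23 ± 0.03 to 9.97 ± 0.09, adjusted p = 0.00626).

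ADA2, a subunit of the SAGA coactivator complex, fell by 0.24 (adjusted p = 0.0352). GIR2, a Gcn1-binding protein, fell by 0.19 (adjusted p = 0.0185) and TAP42, a phosphatase regulator of the TOR pathway, by 0.22 (adjusted p = 0.0381). SNF1, the glucose-sensing kinase, rose by 0.18 (adjusted p = 0.0207). GLC7, the phosphatase that reverses eIF2 phosphorylation, was at 11.34 ± 0.03 and 11.46 ± 0.04 (adjusted p = 0.0967), and MBF1, a coactivator of Gcn4, at 12.05 ± 0.03 and 12.06 ± 0.06 (adjusted p = 0.963). CDC4, the adaptor of the ubiquitin ligase for Gcn4, was at 9.82 ± 0.05 and 9.83 ± 0.12 (adjusted p = 0.888).

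Most targets of Gcn4 were higher. Of 43 amino acid synthesis and other well known target genes, 34 rose (79.1%, against 27.5% of all genes), 1 fell (2.33%, against 15.5%) and 8 did not pass. Their median difference was 0.37, beside 0.08 for the 5 genes of the pathway. Both eEF1A arrays lay above all controls for 40 of 43, where this held for 35.7% of all genes. The median target deviated from the control mean by 0.39 on replicate 2 and 0.37 on replicate 3, where the control arrays lay between −0.04 and 0.04. Replicate 3 was below replicate 2 in 36 of the 43 targets (83.7%), close to the 82.2% of all genes. The rise of amino acid synthesis genes was already known when the list was drawn up, so the count is no independent support.

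The largest rises were in arginine synthesis, where 7 of 8 genes rose with a median of 0.62. ARG3, the carbamoyltransferase that makes citrulline, read 11.26, 11.19, 11.20 and 11.24 in the controls and 12.56 and 12.41 in the eEF1A arrays (difference 1.27 ± 0.06, 2.4-fold, adjusted p = 2.93e-06). ARG8, a transaminase of ornithine synthesis, rose from 10.73 ± 0.06 to 11.75 ± 0.15 (2.02-fold), and ARG5,6, which encodes the enzymes that precede it, from 11.07 ± 0.07 to 11.92 ± 0.02 (1.8-fold). HIS4, of histidine synthesis, rose from 12.20 ± 0.05 in the controls to 12.99 and 13.02 (1.75-fold). All 4 histidine synthesis genes of the target list rose, with a median of 0.47. HIS3, counted above with the marker genes, was not in this list.

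In the lysine pathway 4 of 5 genes rose (median 0.42) and in aromatic amino acid synthesis 7 of 8 (median 0.32). Branched-chain synthesis moved less, with 4 of 7 higher and a median of 0.20. Its genes BAT1, a transaminase, and ILV3, a dehydratase, had differences of 0.14 (adjusted p = 0.0561) and 0.08 (adjusted p = 0.18). In the threonine and serine group 3 of 6 rose and 1 fell. That gene was SER33, a phosphoglycerate dehydrogenase, which went from 10.45 ± 0.06 to 9.97 ± 0.05 (difference −0.48, adjusted p = 0.000399) and was named after its value was seen. PCL5, the cyclin that directs Pho85 to Gcn4 and is itself a Gcn4 target, rose by 0.68 (11.14 ± 0.08 to 11.83 ± 0.03, 1.61-fold, adjusted p = 0.000123), named in the same way.

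**Figure D4:**
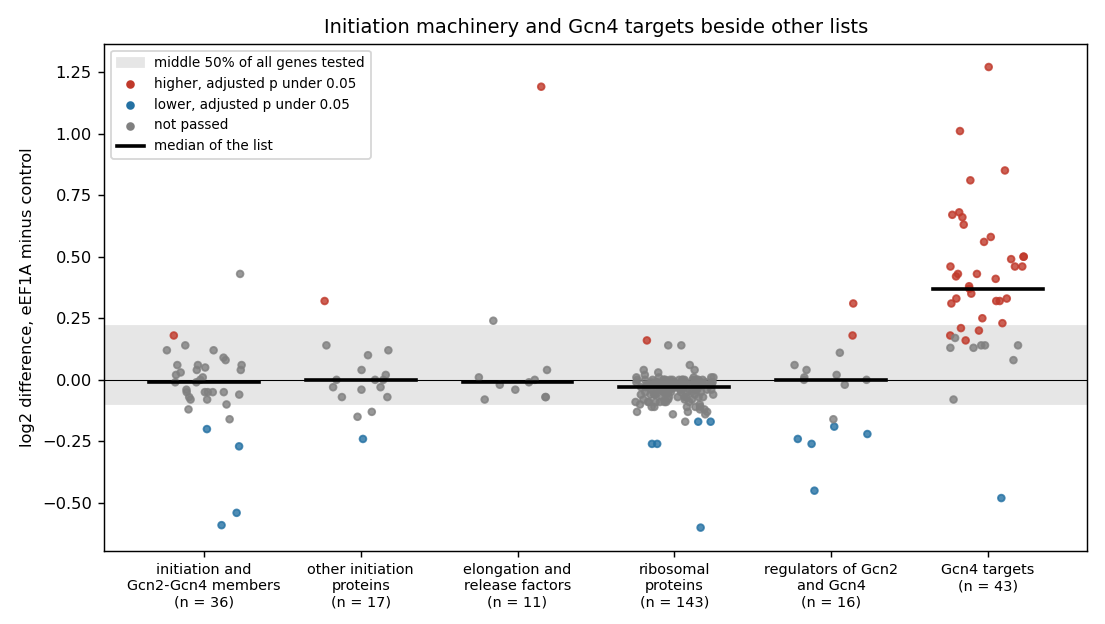
Points are genes in 6 lists, the vertical axis is the log2 difference between eEF1A and control, and black bars are list medians. The grey band, from −0.10 to 0.22, holds the middle 50% of all genes tested; the initiation, elongation and ribosomal protein lists have medians within 0.03 of 0, while the Gcn4 targets centre on 0.37.

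Few genes of the rest of the translation machinery passed, where 27.5% of all genes rose and 15.5% fell. Of 17 other initiation proteins, 1 rose and 1 fell, with a median of −0.00. SGN1, an RNA-binding protein tied to eIF4G, rose by 0.32 (8.03 ± 0.06 to 8.35 ± 0.15, adjusted p = 0.00818). CDC123, the chaperone that assembles eIF2, fell by 0.24 (9.46 ± 0.07 to 9.22 ± 0.05, adjusted p = 0.0134). ASC1, a ribosomal scaffold protein, and STM1, a ribosome clamping factor, differed by −0.03 and 0.02.

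Of 11 probe sets for 13 elongation and release factor genes, only ANB1 passed. ANB1, the form of eIF5A that is kept off by oxygen, read 7.46, 7.87, 7.40 and 7.49 in the controls and 8.84 and 8.66 in the eEF1A arrays (difference 1.19 ± 0.13, 2.29-fold, adjusted p = 0.000249). The shared probe set of EFT1 and EFT2, which encode the translocase eEF2, differed by −0.01 (adjusted p = 0.935).

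Among 143 cytosolic ribosomal protein probe sets, 1 rose (0.699%) and 5 fell (3.5%), with a median of −0.03. Of their differences 119 were negative, where 2413 of 5721 were over all genes. The falls included the shared probe set of RPL41A and RPL41B (−0.60, adjusted p = 0.0234), RPS19A (−0.26, adjusted p = 0.0451) and RPS9A (−0.26, adjusted p = 0.0206). RPL10 and the probe set of RPL2A and RPL2B, among the brightest that did not pass, differed by 0.00 and 0.01.

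DED1 and GCD14 were the members whose fall held throughout. They passed in 17 of 17 alternatives with a p-value, with adjusted p between 0.000473 and 0.0204 and between 3.95e-05 and 0.00554. SUI2 passed in 14 of 17, NIP1 in 11 and GCN20 in 9. By the B-statistic rule, GCD14 passed and DED1, at B = −0.78, did not.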

How the data were processed

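The authors normalized the arrays with RMA (version not given in the sources used here) through affylmGUI. What they deposited, and what was used, is a table of log2 values over 10928 probe sets. RMA sets the arrays to one distribution over both yeasts' probe sets, so differences are relative to the bulk of the chip. Deposited columns of the authors' own comparison (fold changes, B-statistics and p-values) were not used. The fit was made with limma 3.58.1 (R 4.3.3) on 5810 probe sets of S. cerevisiae, group being its only term (4 residual and 4.09 prior degrees of freedom, prior proportion 0.01), and tested on simulated data. The brightest probe set stood for each of 36 genes with several, and 51 control probe sets were not counted, which left 5721 genes for Benjamini-Hochberg adjustment. 95% intervals are from the moderated fit. The number of arrays limits the precision.

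The members and lists were chosen with earlier results of these data known. Every member is named. Values on each array were to be given for members that passed with a difference of 0.3 or more, for GCN4, GCN2 and SUI2, and for paralogs, and in other lists up to 4 genes that passed and 2 that did not were to be named. Array values of other genes, the remaining regulators of Gcn2 and Gcn4, SER33, PCL5 and the neighbours of members that passed were added after the values were seen. Of the listed genes 1, SCD6, was not matched. Positions are those of the annotation's aligned targets, of coding length. No sequences were used here.

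Alternatives were a B-statistic above 1.5, all probe sets in the moderation, a filter on dim probe sets, repeated quantile normalization, centring on the median, limma with a trend or robust moderation, weights for arrays, averaged probe sets, only probe sets specific to 1 gene, a replicate block, each array left out and only the arrays numbered 2 and 3.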

Additional observations from a re-analysis of the deposited data

Results flagged for a closer look

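Among 71 genes whose 4 control arrays were checked for a single distant array, 3 stood out; chance gives about 1 in 20. For CDC33, control replicate 4 was at 13.12 and the next at 13.07 (gap 0.976 of the range). For GCN4, control replicate 2 was at 13.40 and the next at 13.48 (gap 0.949 of the range). For GEP3, the neighbour of DED1, control replicate 3 was at 9.55 and the next at 9.36 (gap 0.914 of the range). All 3 ranges are small in log2 units.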

How the results depend on the processing

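The count of members that fell (4) was 1 by the B-statistic above 1.5, 10 with median centring (GCD2, PRT1, RPG1, SUI3, TIF34 and TIF5 added), 2 with the replicate block and 2 with only the arrays numbered 2 and 3. The count that rose (1) was 0 by the B-statistic, with all probe sets in the moderation, with array weights and with only the arrays numbered 2 and 3, and 2 with quantile normalization again and with limma-trend, GCN4 being added in both. Leaving out single arrays gave 2 to 7 members lower and 0 to 3 higher. The 7 came without eEF1A replicate 2 (GCD10, GCD2 and TIF5 added), and the 3 without eEF1A replicate 3 (DBP1 and TIF4632 added, NIP1 and SUI2 lost). The 34 Gcn4 targets that rose became 18 by the B-statistic, 21 with the replicate block, 27 with only the arrays numbered 2 and 3 and 30 to 36 with single arrays left out, and the 1 that fell became 2 with median centring. Over all genes, 1573 rose and 884 fell; quantile normalization again gave 1370 and 1492, and median centring 1382 and 1445, moving the median difference from 0.04 to −0.01 and −0.02, while the B-statistic gave 349 and 144, the replicate block 773 and 438, array weights 1082 and 563 and only the arrays numbered 2 and 3 854 and 462. Same-numbered arrays shared only a number (correlations of their deviations −0.02 and −0.04). No call changed direction. The cause of these shifts was not tested. With 2 eEF1A arrays, the SE of a member's difference was 0.05 to 0.19.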
